A study of Mus musculus with 10 samples.

Results

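The T cell receptor has no enzyme of its own and is read through a chain of partner proteins. The genes described here are 38 genes of that chain: 4 CD3 chains, 2 chains of the CD8 coreceptor, 6 genes for kinases and the phosphatase CD45, 8 adaptors and exchange factors, 5 genes of the branches downstream, and 13 negative regulators. They were taken from a list of names, and each name was found once among the 55359 gene identifiers of the count table. All 38 passed the filter on low counts, which left 15777 genes for testing.

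The samples are pmel-1 T cells, mouse spleen T cells with a transgenic receptor for the melanoma antigen gp100. All groups went through the same preparation: 48 h of activation with hgp100, 48 h in hIL-2, and a last 24 h of culture before RNA was taken, which followed electroporation in every group but NoEp. There were 5 groups of 2 libraries. NoEp cells are labelled WT and were not electroporated. Mock cells are labelled as electroporated like the cytokine groups, and the labels do not say which mRNA, if any, they received. DRIL18 cells received mRNA for a decoy-resistant IL-18, an IL-18 changed so that the natural IL-18 binding protein does not trap it. IL12 cells received mRNA for a single-chain IL-12 (scIL-12), a cytokine that acts mainly through STAT4, and mixture cells received both mRNAs. The labels give no age or sex of the mice. The labels call the libraries biological replicates without saying that they came from separate animals, so the p-values reflect only how these samples vary, which may be technical.

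When the receptor meets its antigen, the kinase Lck phosphorylates the CD3 and zeta chains, and Zap70 docks on them and phosphorylates the adaptors Lat and Lcp2 (SLP-76). These assemble a complex around phospholipase C gamma 1 (Plcg1), which makes the second messengers diacylglycerol and IP3. Diacylglycerol recruits Rasgrp1, which loads RAS, and protein kinase C theta (Prkcq), which leads through Bcl10 and Malt1 to NF-kB. Phosphatases, diacylglycerol kinases, ubiquitin ligases and inhibitory adaptors hold the chain in check.

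Libraries held between 31281944 and 35062545 counts and 20326 to 21358 detected genes, and levels are given in CPM, each gene's count relative to the library total (scaled by TMM and set to a common size). As a check of the labels, Il18 stood at 412 and 401 CPM in DRIL18, 402 and 360 in the mixture, and between 1.73 and 2.32 in the other 6 libraries. Ifng, a known target of both cytokines, stood at 0.905 and 1.43 CPM in Mock and at 8878 and 9104 in the mixture. Cd4 lay between 3.81 and 6.04 CPM in all libraries, against 738 to 955 for Cd8a. The summed level of 11 CD8 T cell markers, 6 of them among the genes described here, was 8645 to 8827 CPM in Mock, 8243 to 8357 in DRIL18, 6866 to 7209 in IL12 and 6627 to 6808 in the mixture. The 14 B cell markers, of which Ighm made up most, summed to 704.5 to 706.6 CPM in Mock, 934.3 to 985.7 in DRIL18, 460.1 to 495.4 in IL12 and 588.8 to 600.7 in the mixture. The gamma-delta T cell markers, 9 of 12 found, summed to 128.7 to 132.3 CPM in Mock and 49.61 to 50.83 in the mixture. The 7 CD4 and regulatory T cell markers summed to 559.5 to 563.4 CPM in Mock and 2566 to 2720 in the mixture, of which Il2ra alone gave 2505 and 2653 and Foxp3 0.0292 and 0.178. The 10 NK cell markers stayed at or under 3.797 CPM in sum, the 6 erythroid markers under 0.712, and the 19 myeloid and dendritic markers between 7.66 and 24.78, with 6 of them at 0 in all libraries. The upper end of the myeloid and dendritic sum was in IL12, where Xcr1 alone gave 20.6 CPM in both libraries, against 4.64 and 4.34 in Mock. In bulk RNA, fewer cells of a type and less RNA per cell cannot be told apart, and the part of these cell types in the results below was not tested.

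In cells given both mRNAs, nearly the whole chain was at lower levels in CPM. These levels are relative to the library and do not give the amount of RNA per cell. Compared with Mock, 33 of the 38 genes were lower in the mixture, 4 were higher (Lcp2, Themis, Bcl10 and Ptpn6) and 1, Sos1, did not pass the test. Over all tested genes 31.9% were lower and 32.0% higher in this comparison, so the 38 genes lay above the background in the share lower and below it in the share higher. The median log2 fold change of the 38 genes was -0.47, against 0.00 over all genes. A fall of at least 1.5-fold was found for 14 of the 38, against 18.0% of all genes, and a fall of at least 2-fold, found for 10.7% of all genes, for 8: Cd3g, Prkcq, Tespa1, Plcg1, Rasgrp1, Dgka, Ubash3b and Cd5. None of the 4 higher genes reached 1.5-fold, against 16.5% of all genes. In 28 of the 38 both mixture libraries were below all 8 other libraries, which held for 24.8% of all genes. The mixture was the highest group, with both libraries above the other 8, for 3 genes, Lcp2, Bcl10 and Ptpn6, and for 3945 of the 15777 tested genes. Abundant genes pass such a test more often. Among the 6596 genes with a mean of at least 25 CPM, a level reached by 37 of the 38 and chosen after the values were seen, 39.7% were lower and 42.4% higher in the mixture. Changes passed edgeR's quasi-likelihood test at a Benjamini-Hochberg adjusted p under 0.05 over all 15777 genes, which is what higher, lower, rose and fell mean throughout. The table's columns carry a mark, bis, of unstated meaning on both mixture and both NoEp libraries, on DRIL18 replicate 2 and on IL12 replicate 2. No Mock library carries it, so for the mixture against Mock no comparison within the mark exists. A fit with the mark as a term called 36 of the 38. That fit takes the effect of the mark from the replicates of DRIL18 and of IL12 alone. It assumes the same effect in Mock and the mixture, which these libraries cannot check.

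**Figure D1:**
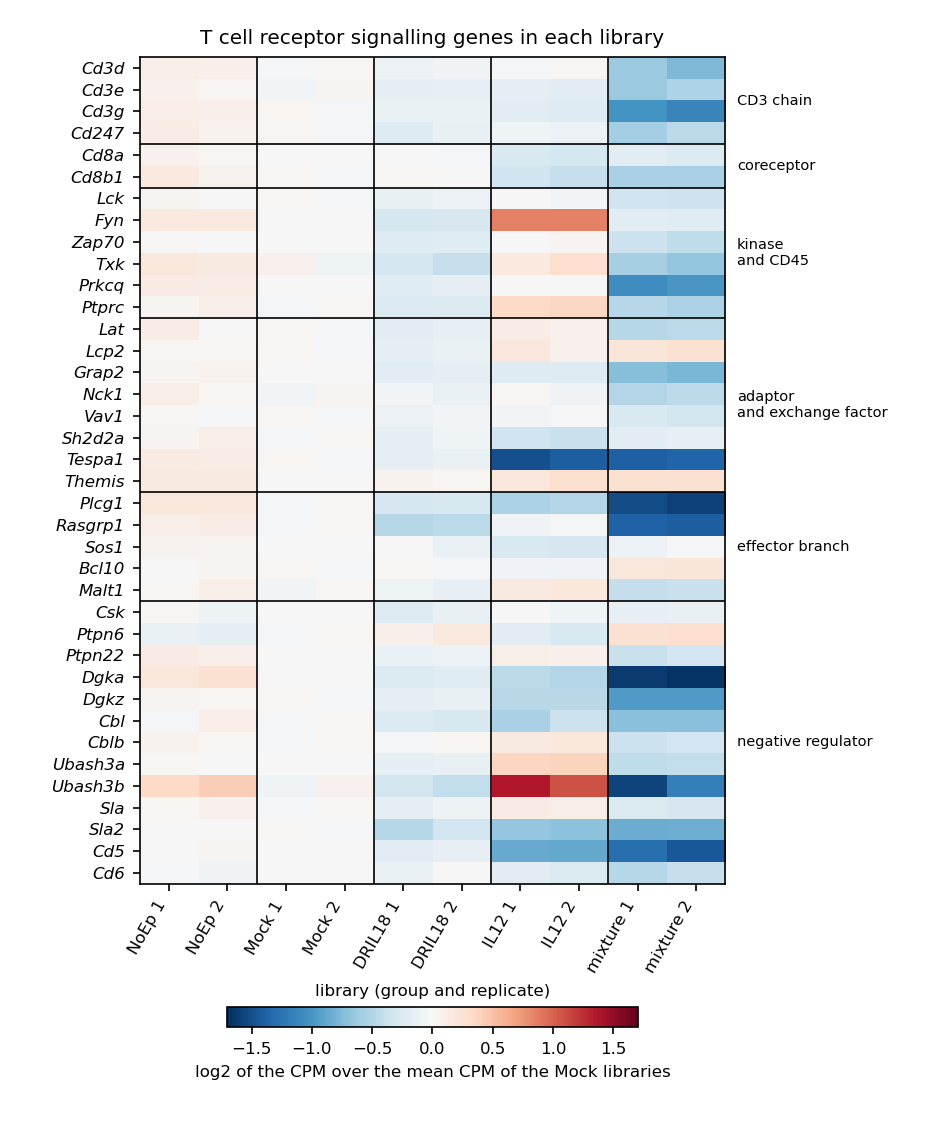
Log2 of the CPM in each of the 10 libraries over the mean CPM of the 2 Mock libraries, for the 38 genes ordered by role (rows); the columns are libraries by group and replicate, blue is lower and red higher than Mock. The 2 mixture columns are blue in most rows, and Fyn, Ptprc, Ubash3a and Ubash3b are red in IL12 and blue in the mixture.

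**Figure D2:**
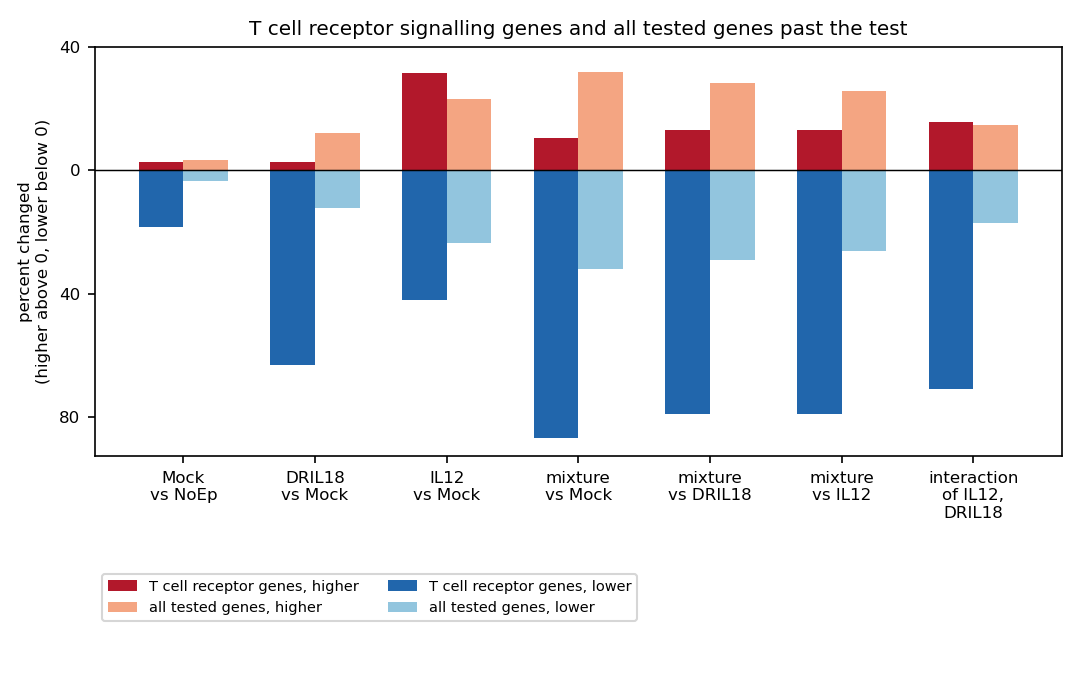
Percent of the 38 T cell receptor genes (dark bars) and of all 15777 tested genes (light bars) that passed the test in each comparison, higher above 0 and lower below 0 on the vertical axis. The lower share of the 38 genes exceeds that of all genes in each of the 7 comparisons, and their higher share is below that of all genes in 5 of them with TMM scaling.

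All 4 CD3 chains, the signalling part of the receptor complex, were lower in the mixture, by 30.1% to 52.2%. So were 31.9% of all tested genes and 39.7% of those with a mean of at least 25 CPM. Cd3g stood at 463 and 444 CPM in Mock, 490 and 482 in NoEp, 417 and 420 in DRIL18, 395 and 389 in IL12, and 225 and 209 in the mixture. Both mixture libraries lay far below the other 8. Its log2 fold change against Mock was -0.12 ± 0.037 (SE) in DRIL18 (adjusted p = 0.0222), -0.21 ± 0.037 in IL12 (adjusted p = 2.56e-05) and -1.06 ± 0.038 in the mixture (adjusted p = 4.22e-21). Cd3d, its neighbour on the opposite strand, stood at 274 and 285 CPM in Mock, 300 and 296 in NoEp, 262 and 268 in DRIL18, 272 and 283 in IL12, and 181 and 165 in the mixture. Neither single mRNA passed the test for Cd3d, with log2 fold changes of -0.08 (adjusted p = 0.176) in DRIL18 and -0.01 (adjusted p = 0.879) in IL12, while the mixture was at -0.69 ± 0.041 (adjusted p = 1.3e-15). Cd3e, which pairs with both other chains, stood at 395 and 423 CPM in Mock, 431 and 418 in NoEp, 368 and 372 in DRIL18, 366 and 356 in IL12, and 265 and 283 in the mixture. It was lower in all 3 groups against Mock, by 0.14 and 0.18 on the log2 scale with the single mRNAs and by 0.58 ± 0.040 in the mixture (adjusted p = 4.66e-14). Cd247, the zeta chain, stood at 250 and 246 CPM in Mock, 270 and 259 in NoEp, 214 and 228 in DRIL18, 236 and 232 in IL12, and 167 and 180 in the mixture. Its fall was 0.17 on the log2 scale in DRIL18 (adjusted p = 0.0024) and 0.52 ± 0.041 in the mixture (adjusted p = 1.89e-12), and IL12 did not pass (adjusted p = 0.0918). The calls in DRIL18 were lost without DRIL18 replicate 1 for Cd3e, Cd3g and Cd247 (adjusted p = 0.106 for Cd247) and, for Cd3g, also without DRIL18 replicate 2 or Mock replicate 1, with adjusted p up to 0.251. Cd3e lost its call without Mock replicate 2 in DRIL18 (adjusted p up to 0.225) and in IL12 (adjusted p = 0.0514).

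Cd3g and Cd3d start 1355 bp apart in opposite directions, and Cd3e starts 27825 bp from Cd3d, on mouse chromosome 9. The 250 bases before each start, 5′ to 3′ along the gene, are shown because these neighbours share a stretch of chromosome and were both lower in the mixture. They come from RefSeq's promoter table on GRCm38.p6, whereas counting was done on mm39. Cd3g lies on the minus strand with the window at chr9:44980432-44980681, and Cd3d on the plus strand with the window at chr9:44981536-44981785. Capitals mark a match to TTCNNNGAA, the palindrome that STAT factors bind.
Cd3g: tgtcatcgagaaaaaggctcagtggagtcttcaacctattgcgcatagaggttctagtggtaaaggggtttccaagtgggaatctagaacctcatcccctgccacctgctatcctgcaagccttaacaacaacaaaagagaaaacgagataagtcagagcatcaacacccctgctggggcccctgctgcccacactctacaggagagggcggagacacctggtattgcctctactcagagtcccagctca
Cd3d: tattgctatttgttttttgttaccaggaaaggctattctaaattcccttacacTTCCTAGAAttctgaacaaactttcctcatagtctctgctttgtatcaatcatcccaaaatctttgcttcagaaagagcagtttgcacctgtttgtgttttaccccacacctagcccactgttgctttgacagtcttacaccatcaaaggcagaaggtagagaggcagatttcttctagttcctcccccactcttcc
The match in Cd3d lies 197 to 189 bases before the start, and none of the 4 motifs searched is in the window of Cd3g.

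Both chains of the CD8 coreceptor, which brings Lck to the receptor, were lower in both groups with IL-12 mRNA. The share of all tested genes lower was 23.6% in IL12 and 31.9% in the mixture (29.6% and 39.7% of those with a mean of at least 25 CPM). Cd8a stood at 918 and 903 CPM in Mock, 955 and 931 in NoEp, 906 and 899 in DRIL18, 763 and 738 in IL12, and 797 and 777 in the mixture. IL12 and mixture libraries were all below the other 6, and the mixture did not differ past the test from IL12 (log2 fold change 0.07, adjusted p = 0.101). Against Mock, Cd8a was lower by 0.28 on the log2 scale in IL12 (adjusted p = 5.52e-08) and by 0.21 in the mixture (adjusted p = 3.15e-06). Cd8b1 stood at 692 and 678 CPM in Mock, 771 and 713 in NoEp, 693 and 689 in DRIL18, 540 and 520 in IL12, and 466 and 468 in the mixture. Here the mixture was below IL12 as well, by 0.18 on the log2 scale (adjusted p = 0.000127), and below Mock by 0.55 ± 0.038 (adjusted p = 3.8e-14). Neither chain passed the test in DRIL18, with log2 fold changes of -0.01 for Cd8a and 0.01 for Cd8b1.

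The 6 genes for kinases and CD45 were all lower in DRIL18 and all lower in the mixture, and in IL12 none was lower and 3 were higher. Of all tested genes 12.1% were lower in DRIL18 and 31.9% in the mixture, and in IL12 23.6% were lower and 23.0% higher. In the same order these shares were 21.7%, 39.7%, 29.6% and 36.5% of the genes with a mean of at least 25 CPM. Fyn, a kinase of the SRC family beside Lck, stood at 243 and 246 CPM in Mock, 273 and 275 in NoEp, 199 and 203 in DRIL18, 443 and 441 in IL12, and 215 and 211 in the mixture. IL12 libraries were far above all others, and the mixture lay near DRIL18. The log2 fold change was 0.85 ± 0.035 in IL12 (adjusted p = 3.56e-19), -0.28 ± 0.035 in DRIL18 (adjusted p = 3.12e-07) and -0.20 ± 0.035 in the mixture (adjusted p = 1.35e-05). Ptprc encodes CD45, which removes the inhibitory phosphate from Lck, and stood at 1982 and 2029 CPM in Mock, 2078 and 2164 in NoEp, 1708 and 1691 in DRIL18, 2545 and 2555 in IL12, and 1429 and 1385 in the mixture. It was higher than Mock by 0.35 on the log2 scale in IL12 (adjusted p = 4.73e-10) and lower by 0.51 ± 0.034 in the mixture (adjusted p = 2.09e-14). Txk, a Tec family kinase, stood at 33.1 and 29.8 CPM in Mock, 36.1 and 35.1 in NoEp, 25.6 and 24.1 in DRIL18, 35.4 and 38.4 in IL12, and 21.3 and 19.98 in the mixture. Its groups followed the order of Ptprc, with log2 fold changes of -0.34 in DRIL18, 0.23 in IL12 and -0.61 ± 0.072 in the mixture (adjusted p = 8.85e-09). The call of Txk in IL12 was lost without IL12 replicate 2, without Mock replicate 2 and without scaling beyond the total count (adjusted p up to 0.13). Lck stood at 771 and 749 CPM in Mock, 785 and 758 in NoEp, 698 and 709 in DRIL18, 754 and 737 in IL12, and 602 and 597 in the mixture, a fall of 0.34 ± 0.035 on the log2 scale (adjusted p = 4.18e-10). Its smaller fall in DRIL18 (log2 fold change -0.11, adjusted p = 0.0174) was lost without DRIL18 replicate 1, DRIL18 replicate 2 or Mock replicate 1, with adjusted p up to 0.176. Prkcq, the kinase that diacylglycerol recruits, lay between 271 and 300 CPM in NoEp, Mock and IL12, at 236 and 244 in DRIL18, and at 131 and 137 in the mixture. IL12 alone left it at a log2 fold change of 0.00 (adjusted p = 0.948), and the mixture stood at -1.03 ± 0.038 (adjusted p = 6.94e-21). Zap70 was at -0.22 in DRIL18, 0.03 (adjusted p = 0.568) in IL12 and -0.40 ± 0.038 in the mixture (adjusted p = 7.62e-11).

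**Figure D3:**
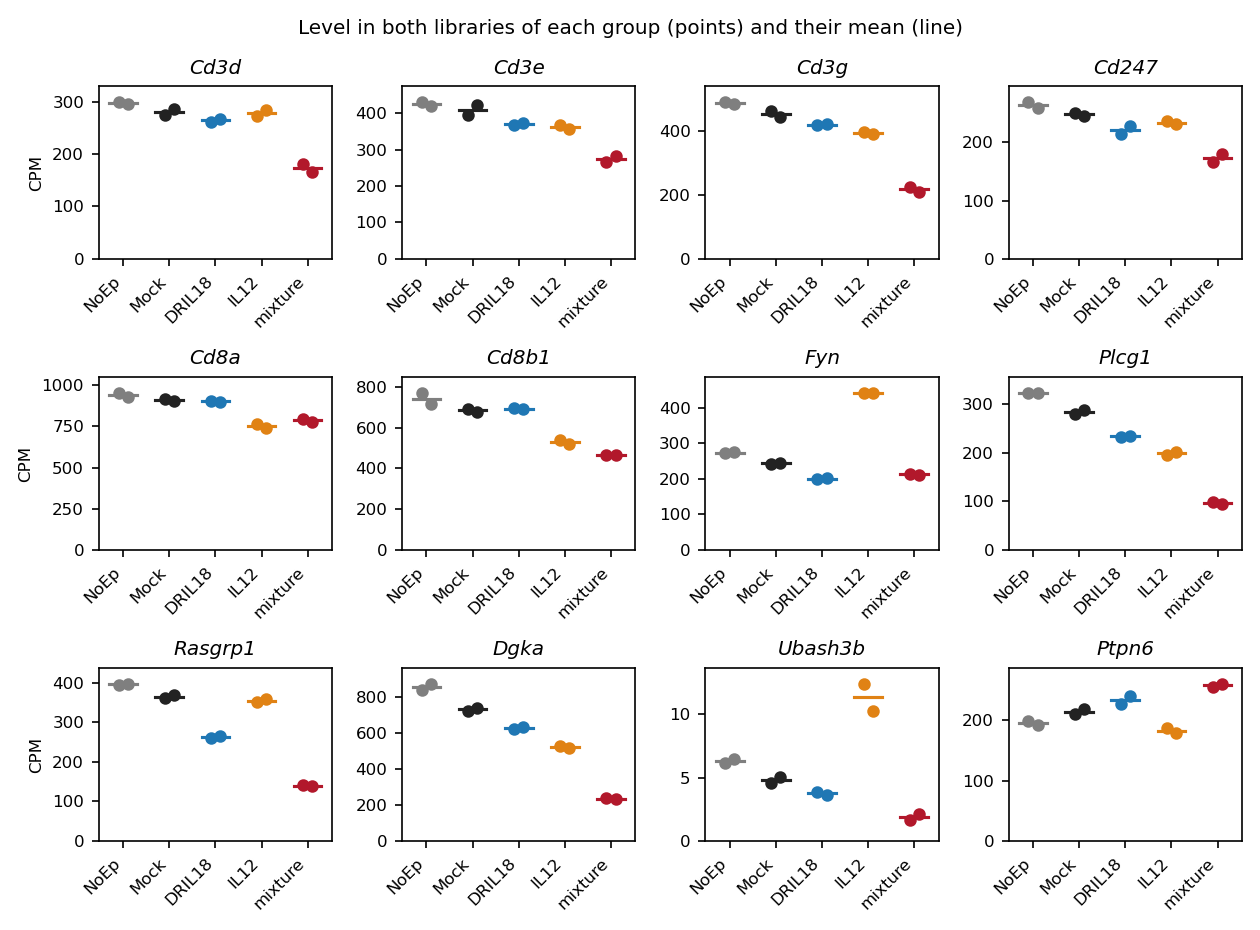
CPM of 12 of the genes in both libraries of each group (points) with the group mean (line); each vertical axis starts at 0. In 10 of the panels the 2 mixture points are below those of NoEp, Mock and DRIL18, while those of Fyn lie just above DRIL18 and those of Ptpn6 are the highest.

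Among the 8 adaptors and exchange factors, 6 were lower and 2 higher in the mixture. Over all tested genes 31.9% were lower and 32.0% higher there (39.7% and 42.4% of those with a mean of at least 25 CPM). Lcp2 (SLP-76) stood at 286 and 276 CPM in Mock, 288 and 285 in NoEp, 254 and 260 in DRIL18, 320 and 295 in IL12, and 324 and 337 in the mixture. Both mixture libraries were above the other 8, by 0.23 ± 0.039 on the log2 scale against Mock (adjusted p = 4.33e-06), while Lat, with which SLP-76 works, was lower by 0.47 ± 0.039 (adjusted p = 5.16e-12). Grap2 (GADS), the adaptor that joins Lat and SLP-76, was lower by 0.75 ± 0.035 (adjusted p = 2.43e-18). The exchange factor Vav1 fell by 0.29 and the adaptors Nck1 and Sh2d2a by 0.47 and 0.15 on the same scale. Themis, known for its part in thymocyte selection, stood at 458 and 457 CPM in Mock, 507 and 511 in NoEp, 476 and 470 in DRIL18, 525 and 554 in IL12, and 548 and 549 in the mixture. IL12 and mixture were both above Mock, by 0.24 (adjusted p = 1.59e-06) and 0.26 (adjusted p = 1.23e-07) on the log2 scale, and did not differ from each other past the test (log2 fold change 0.02, adjusted p = 0.6). Tespa1, which links the receptor to IP3 receptors and calcium, stood at 45.4 and 43.4 CPM in Mock, 48.7 and 48.5 in NoEp, 39.6 and 41.0 in DRIL18, 15.7 and 16.8 in IL12, and 16.9 and 17.3 in the mixture. The 4 libraries with IL-12 mRNA lay together, far below the other 6. Its log2 fold change was -1.45 ± 0.066 in IL12 (adjusted p = 7.11e-18) and -1.37 ± 0.065 in the mixture (adjusted p = 4.74e-18), with no call in DRIL18 (-0.14, adjusted p = 0.0846).

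Of the 5 genes downstream, Plcg1, Rasgrp1 and Malt1 were lower in the mixture, Bcl10 was higher, and Sos1, the other RAS exchange factor, did not pass (log2 fold change -0.07, adjusted p = 0.306). In that comparison 31.9% of all tested genes were lower and 32.0% higher (39.7% and 42.4% of those with a mean of at least 25 CPM). Plcg1 stood at 280 and 286 CPM in Mock, 322 and 323 in NoEp, 232 and 234 in DRIL18, 196 and 201 in IL12, and 98.7 and 94.4 in the mixture. No group overlapped another. The log2 fold change of Plcg1 was -0.28 ± 0.036 in DRIL18 (adjusted p = 4.82e-07), -0.52 ± 0.037 in IL12 (adjusted p = 3.99e-13) and -1.55 ± 0.039 in the mixture (adjusted p = 3.2e-25), a level 65.9% lower. Rasgrp1 stood at 360 and 369 CPM in Mock, 394 and 397 in NoEp, 260 and 266 in DRIL18, 350 and 358 in IL12, and 140 and 138 in the mixture. It had the largest fall of the 38 genes in DRIL18, -0.47 ± 0.035 (adjusted p = 8.02e-12), was not called in IL12 (-0.04, adjusted p = 0.33), and reached -1.39 ± 0.036 in the mixture (adjusted p = 1.35e-24). Malt1, a protease of the NF-kB branch, was higher in IL12 by 0.17 on the log2 scale and lower in the mixture by 0.40 ± 0.044 (adjusted p = 3.01e-09). Its call in IL12 was lost without Mock replicate 1 and without scaling beyond the total count (adjusted p up to 0.139). Bcl10, its partner, stood at 54.0 and 53.0 CPM in Mock, 53.9 and 55.2 in NoEp, 54.2 and 52.7 in DRIL18, 51.5 and 51.4 in IL12, and 61.3 and 61.9 in the mixture. Only in the mixture did it pass against Mock among the 3 cytokine groups (0.20 ± 0.050, adjusted p = 0.000667), and it was above both single groups there, by 0.20 (adjusted p = 0.00075) against DRIL18 and 0.26 (adjusted p = 5.73e-05) against IL12.

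The negative regulators fell with the positive ones: 12 of 13 were lower in the mixture. The share lower there was 31.9% of all tested genes and 39.7% of those with a mean of at least 25 CPM. Dgka, a kinase that removes diacylglycerol, stood at 727 and 740 CPM in Mock, 839 and 876 in NoEp, 624 and 637 in DRIL18, 531 and 519 in IL12, and 238 and 231 in the mixture. No group overlapped another, and the order ran from NoEp to the mixture. Its log2 fold change against Mock was -0.22 ± 0.035 in DRIL18 (adjusted p = 1.87e-05), -0.48 ± 0.036 in IL12 (adjusted p = 9.34e-13) and -1.64 ± 0.037 in the mixture (adjusted p = 2.26e-26), the largest fall of the 38 genes there. Dgkz, the second such kinase, fell by 0.96 ± 0.035 in the mixture (adjusted p = 8.31e-21). Cd5, a surface receptor that dampens the signal, stood at 95.8 and 94.3 CPM in Mock, 95.5 and 98.6 in NoEp, 83.1 and 86.4 in DRIL18, 52.6 and 52.2 in IL12, and 39.1 and 34.9 in the mixture. IL12 and mixture libraries lay well below the rest, with log2 fold changes of -0.86 ± 0.051 (adjusted p = 4.26e-15) and -1.36 ± 0.052 (adjusted p = 2.37e-20). Its small fall in DRIL18 (-0.16, adjusted p = 0.0107) was lost without DRIL18 replicate 1 or either Mock library (adjusted p up to 0.128). Cd6, a related receptor, fell by 0.22 in IL12 and 0.44 in the mixture. The inhibitory adaptor Sla2 stood at 88.4 and 86.2 CPM in Mock, 88.0 and 87.7 in NoEp, 62.6 and 69.5 in DRIL18, 55.3 and 53.8 in IL12, and 48.6 and 49.1 in the mixture. It stepped down across the cytokine groups, by 0.40 ± 0.050 (adjusted p = 2.11e-07), 0.68 ± 0.051 (adjusted p = 1.34e-12) and 0.84 ± 0.051 (adjusted p = 2.69e-15) on the log2 scale.

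The phosphatases and their relatives did not all follow. Ptpn6 (SHP-1) was the 1 negative regulator higher in the mixture, at 255 and 260 CPM against 210 and 218 in Mock, 198 and 193 in NoEp, 227 and 240 in DRIL18, and 187 and 179 in IL12. Both mixture libraries were above the other 8, by 0.27 ± 0.039 on the log2 scale against Mock (adjusted p = 4.43e-07), and IL12 was below Mock by 0.23 (adjusted p = 1.52e-05). Its rise in DRIL18 (0.13, adjusted p = 0.0154) was lost without DRIL18 replicate 2 or Mock replicate 1 and with the mark bis as a term, with adjusted p up to 0.287. Ptpn22, a phosphatase that acts on Lck, stood at 307 and 303 CPM in Mock, 338 and 325 in NoEp, 283 and 285 in DRIL18, 327 and 324 in IL12, and 234 and 244 in the mixture, a fall of 0.35 ± 0.036 on the log2 scale (adjusted p = 5.02e-10). Its small changes in DRIL18 (-0.10, adjusted p = 0.0335) and IL12 (0.09, adjusted p = 0.0362) were each lost when any of the 4 libraries compared was left out, among other settings (adjusted p up to 0.187 and 0.935). Ubash3a and Ubash3b encode a pair of related suppressors of receptor signalling. Ubash3a stood at 165 and 165 CPM in Mock, 167 and 166 in NoEp, 149 and 152 in DRIL18, 212 and 214 in IL12, and 122 and 124 in the mixture. Ubash3b, the least abundant of the 38 genes, stood at 4.61 and 5.08 CPM in Mock, 6.15 and 6.48 in NoEp, 3.89 and 3.62 in DRIL18, 12.4 and 10.3 in IL12, and 1.63 and 2.16 in the mixture. For both genes the IL12 libraries were the highest of the 10 and the mixture libraries the lowest. The log2 fold change of Ubash3a was 0.37 ± 0.037 in IL12 (adjusted p = 9.42e-10) and -0.43 ± 0.038 in the mixture (adjusted p = 2.17e-11). That of Ubash3b was 1.23 ± 0.14 (adjusted p = 1.21e-08) and -1.35 ± 0.18 (adjusted p = 6.74e-08), and the mixture was below IL12 by 2.58 ± 0.16 (adjusted p = 1.22e-14). The ubiquitin ligases Cbl and Cblb differed in IL12, where Cbl fell by 0.46 and Cblb rose by 0.16 on the log2 scale, and both were lower in the mixture, by 0.71 and 0.34. Csk, which places the inhibitory phosphate on Lck, was lower by 0.13 in the mixture (adjusted p = 0.00574), a call lost without Mock replicate 2 and with the mark bis as a term (adjusted p up to 0.0676).

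**Figure D4:**
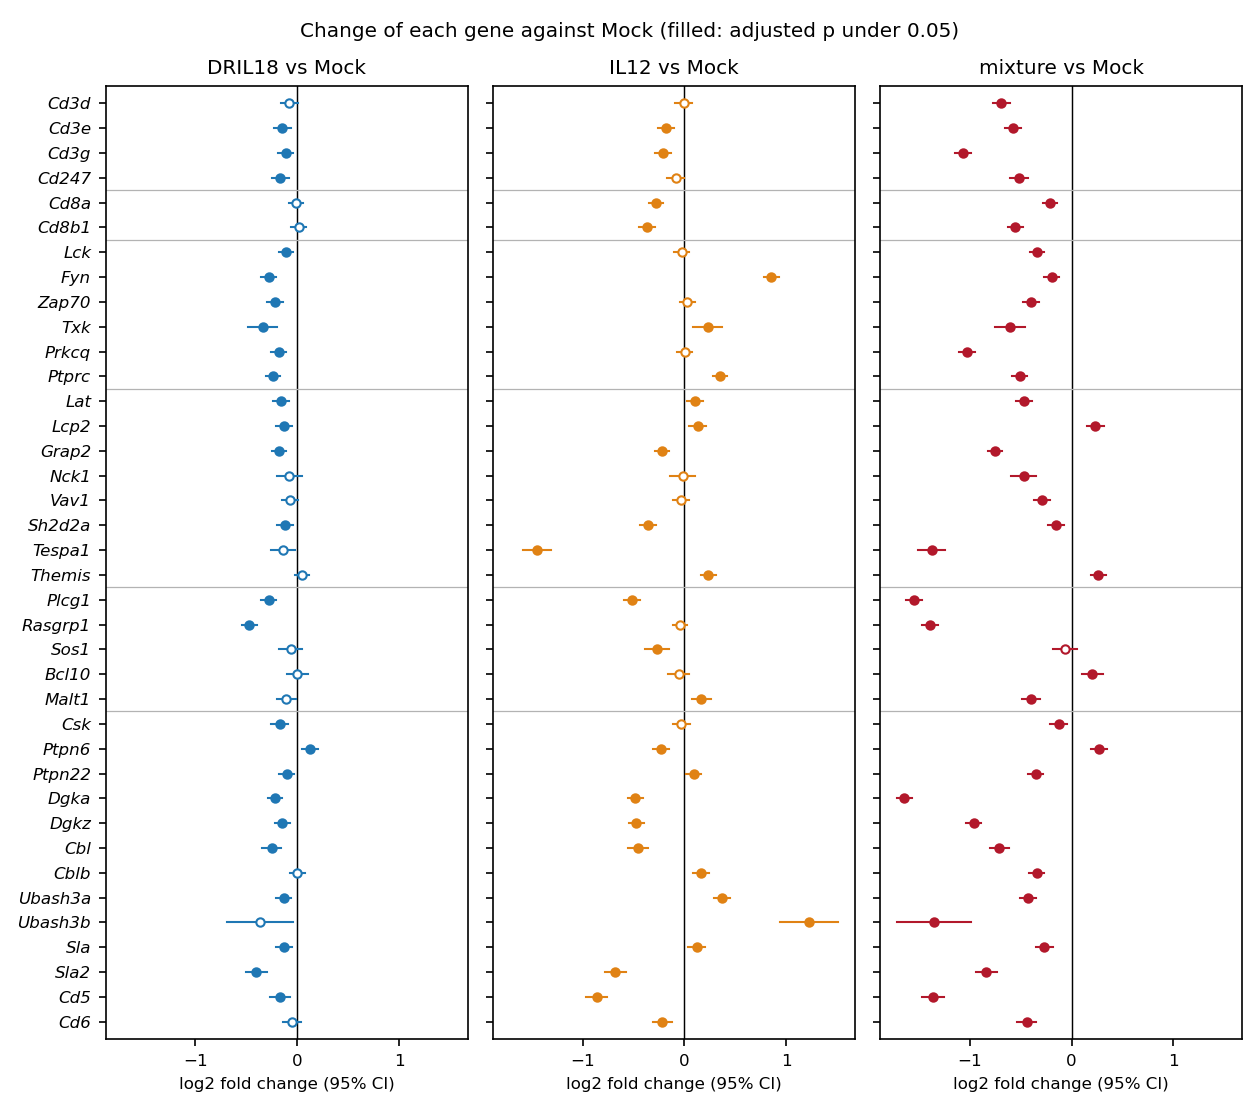
Log2 fold change of each of the 38 genes against Mock (points, with 95% confidence intervals from the edgeR fit) in DRIL18, IL12 and the mixture; filled points passed the test. In the mixture the points lie left of 0 for all but Lcp2, Themis, Bcl10 and Ptpn6, while in IL12 they lie on both sides.

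With DRIL18 alone, changes were small and nearly all one way. Against Mock, 24 of the 38 genes were lower and 1, Ptpn6, was higher, where 12.1% of all tested genes were lower and 12.2% higher. Among the abundant genes defined above, 21.7% were lower and 19.1% higher. None reached 1.5-fold, against 4.08% of all genes in either direction. The median log2 fold change of the 38 genes was -0.14, and the range ran from -0.47 for Rasgrp1 to 0.13 for Ptpn6. The calls of 11 genes held in each of the 20 alternatives: Fyn, Zap70, Txk, Prkcq, Ptprc, Grap2, Plcg1, Rasgrp1, Dgka, Cbl and Sla2. Without DRIL18 replicate 1 the count was 13, without Mock replicate 1 it was 16, and between the libraries without the mark bis (without DRIL18 replicate 2) it was 21, all lower.

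With IL12 alone the genes went both ways, as did the tested genes in general. Against Mock, 12 of the 38 genes were higher and 16 lower, where 23.0% of all tested genes were higher and 23.6% lower (36.5% and 29.6% of the abundant genes). Past 1.5-fold, 2 were higher (Fyn and Ubash3b) and 3 lower (Tespa1, Cd5 and Sla2), against 7.30% and 8.43% of all genes. Without scaling beyond the total count, 5 of the 38 were higher and 23 lower, and with upper quartile factors 8 and 18. Over all genes the calls then shifted from 3635 higher and 3721 lower to 2641 and 4873 without scaling, and to 3073 and 4321 with upper quartile factors. Fyn, Ptprc, Themis, Ubash3a and Ubash3b were the higher genes whose calls held in each of the 20 alternatives. Between the libraries without the mark bis (without IL12 replicate 2), 10 were higher and 16 lower.

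Against each single group the mixture was lower for most of the genes. Compared with DRIL18, 30 of the 38 were lower and 5 higher, where 29.0% of all tested genes were lower and 28.3% higher (36.7% and 40.5% of the abundant genes). Between the libraries that carry the mark bis (without DRIL18 replicate 1), 30 were lower and 3 higher. Compared with IL12, 30 were lower and 5 higher, where 26.3% and 25.8% of all tested genes were (38.0% and 34.2% of the abundant genes). Between the marked libraries (without IL12 replicate 1), 28 were lower and 5 higher. The mixture was below Mock, below DRIL18 and below IL12 for 28 of the 38 genes, in comparisons that share the mixture libraries, against 18.5% of all tested genes. Fyn was the exception among the kinases, since its difference from DRIL18 was small (0.08, adjusted p = 0.0441) and lost without any 1 of the DRIL18, mixture or Mock libraries and under 4 other settings (adjusted p up to 0.647).

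For most of the genes the mixture differed from the sum of the single groups. The interaction compares the mixture's log2 fold change with both single ones added up, all against Mock. It was below 0 for 27 of the 38 genes and above 0 for 6, so 33 passed in all, where 17.1% of all tested genes were below 0 and 14.6% above (31.6% together). Among the abundant genes 27.0% were below 0 and 22.3% above. Its median over the 38 genes was -0.30. It was largest for Ubash3b at -2.21 ± 0.23 (adjusted p = 3.86e-09), followed by Dgka at -0.94 ± 0.051 (adjusted p = 9.86e-16), Rasgrp1 at -0.88 ± 0.050 (adjusted p = 4.76e-15), Prkcq at -0.85 ± 0.052 (adjusted p = 2.72e-14), Fyn at -0.77 ± 0.050 (adjusted p = 8.3e-14), Plcg1 at -0.76 ± 0.053 (adjusted p = 6.4e-13) and Cd3g at -0.74 ± 0.053 (adjusted p = 1.08e-12). Of the 12 genes that IL12 raised in cells without DRIL18, 10 were lower than Mock in the mixture, against 9.08% of all tested genes that IL12 raised. For 10 genes the response to IL-12 mRNA passed the test in opposite directions without and with DRIL18 mRNA, against 3.35% of all tested genes. Of these, 9 (Txk, Ptprc, Lat, Malt1, Ptpn22, Cblb, Ubash3a, Ubash3b and Sla) rose without it and fell with it, against 1.94% of all tested genes. The exception was Ptpn6, lower by 0.23 with IL12 against Mock and higher by 0.14 in the mixture against DRIL18 (adjusted p = 0.00247), where the call was lost without DRIL18 replicate 1 and without scaling beyond the total count (adjusted p up to 0.0878). For 6 of the 9 (Txk, Lat, Malt1, Ptpn22, Cblb and Sla) the rise with IL12 was lost in at least 1 alternative, and for Sla the fall against DRIL18 was lost without DRIL18 replicate 2 (adjusted p = 0.108). The interaction did not pass for Cd8a, Tespa1, Themis, Csk and Cbl. In the first 3 of these the mixture was not told apart from IL12 by the test, while Cbl had an interaction of -0.01 ± 0.065 (adjusted p = 0.958), its mixture level being close to the sum of both falls.

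**Figure D5:**
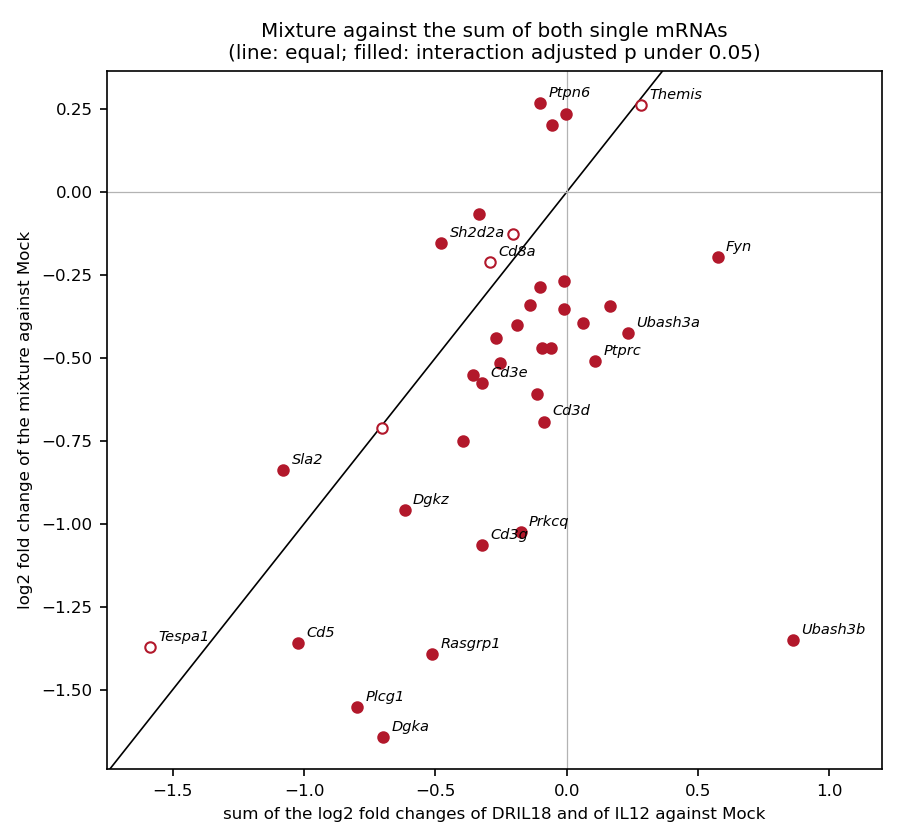
Mixture against Mock (log2 fold change, vertical axis) plotted over the added log2 fold changes of DRIL18 and IL12 (horizontal axis), 1 point for each of the 38 genes; the line marks equality and filled points passed the interaction test. Most points lie below the line, and Ubash3b lies farthest from it.

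Between the electroporated and the untouched controls 8 of the 38 genes differed, a larger share than over all tested genes. Against NoEp, Mock was lower for 7 (Fyn, Prkcq, Themis, Plcg1, Rasgrp1, Ptpn22 and Dgka) and higher for 1 (Ptpn6), where 3.64% of all tested genes were lower and 3.34% higher (6.58% and 7.26% of the abundant genes). The changes were small, between -0.23 for Dgka (adjusted p = 0.000146) and 0.13 for Ptpn6 (adjusted p = 0.0364) on the log2 scale. Only the call of Dgka held in each of the 20 alternatives. The mark bis stands on both NoEp and on no Mock library, so the mark and electroporation cannot be told apart by these groups alone. With the mark as a term 1 gene was called, as it was without Mock replicate 1, and without Mock replicate 2, NoEp replicate 1 or NoEp replicate 2 the counts were 3, 4 and 4.

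Levels of different genes are given here per kilobase of merged exon. This length covers every annotated exon of a gene, whether or not these cells use it, so the order of genes depends on it. In Mock the highest of the 38 by this measure were Cd8b1 at 462 CPM per kilobase, Lck at 260 and Cd8a at 250, followed by Cd3d and Dgka at 154 each. Cd3g stood at 139, Cd3e at 100 and Cd247 at 46.5 CPM per kilobase, so the mixture's levels of 66.3 for Cd3g and 67.2 for Cd3e were close to each other and below the 95.3 of Cd3d. Dgka moved from 154 to 49.2 CPM per kilobase in the mixture. By this measure it was then below Ptprc at 76.8 and Lcp2 at 74.1, both of which it exceeded in Mock. The merged exons of Ptprc span 18313 bp against 4762 bp for Dgka. In plain CPM Ptprc was above Dgka in Mock, with means of 2006 and 733.1. Exon lengths come from GENCODE M21 on GRCm38, not from the annotation used for counting.

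Promoter windows were searched on both strands for 4 motifs of factors known from T cells: TTCNNNGAA (STAT), TGANTCA (AP-1), CCGGAA (ETS) and TGTGGT (RUNX). RefSeq's table holds 46 windows for 32 of the 38 genes and 32851 windows in all, each taken as the 250 bases before the start. The STAT motif was in 4 of the 46 windows (8.70%, against 7.02% of all), in Cd3d, Ptpn22, Rasgrp1 and Ubash3b. The AP-1 motif was in 0 of them (6.75% of all), the ETS motif in 3 (6.52%, against 12.0%) and the RUNX motif in 6 (13.0%, against 14.0%). No match overlapped that of another motif. The windows of Rasgrp1 and Ubash3b are shown because both genes had a large interaction and were called differently in IL12, where Ubash3b rose and Rasgrp1 did not pass. A window of Ubash3b was shown only if it held a match to TTCNNNGAA, so the match seen in it was fixed by that choice. Rasgrp1 lies on the minus strand of chromosome 2 with the window at chr2:117342878-117343127, and Ubash3b on the minus strand of chromosome 9 with the window at chr9:41158063-41158312, both on GRCm38.p6. Capitals mark the match to TTCNNNGAA, 120 to 112 bases before the start of Rasgrp1 and 132 to 124 before that of Ubash3b.
Rasgrp1: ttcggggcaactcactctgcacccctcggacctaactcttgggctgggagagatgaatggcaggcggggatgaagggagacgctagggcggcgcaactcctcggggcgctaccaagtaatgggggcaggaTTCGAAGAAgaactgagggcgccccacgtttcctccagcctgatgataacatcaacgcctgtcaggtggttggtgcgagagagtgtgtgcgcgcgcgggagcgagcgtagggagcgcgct
Ubash3b: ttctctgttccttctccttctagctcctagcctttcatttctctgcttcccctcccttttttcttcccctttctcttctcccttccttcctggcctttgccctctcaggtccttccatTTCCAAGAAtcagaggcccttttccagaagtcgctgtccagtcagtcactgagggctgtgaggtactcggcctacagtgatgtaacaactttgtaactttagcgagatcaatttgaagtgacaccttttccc
A match of these letters is a description and not a binding site.

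Beyond the 38 genes, 119 other genes of the pathway were listed in 5 groups, of which 116 were tested. In the mixture 61 were lower than Mock and 36 higher, against the 31.9% and 32.0% of all genes. Of the receptor's constant regions and surface partners, 9 of 12 were lower and 1 higher, with the adaptors Sit1, Lax1 and Pag1 at log2 fold changes of -1.39, -1.31 and -1.15, and the costimulatory receptor Cd28 at 0.30. Trac, the constant region of the alpha chain, was at -0.61 ± 0.038 (adjusted p = 4.36e-15). Reads of the near-identical Trbc1 and Trbc2 cannot be assigned with certainty, and their values of -0.39 and -0.16 may be shared. Of the Tec kinase, PI3K and cytoskeletal partners, 18 of 23 were lower and 3 higher, from Evl, an actin regulator, at -1.67, Pik3cd, the catalytic PI3K subunit of lymphocytes, at -0.99 and Pik3r1, a regulatory subunit, at -0.83, to Akt1 at 0.11, Skap2 at 1.06 and the exchange factor Vav2 at 2.42. Of the RAS, MAPK and NF-kB genes reported, 16 of 28 were higher and 7 lower, so that this was the list with more genes higher than lower. There the inhibitors Rasa3 and Rasal3 were at -2.38 and -1.25 and the kinase Mapk3 at -0.79, while Ksr1, a MAPK scaffold, was at 2.26, Spred1, an inhibitor of RAS signalling, at 1.99 and Tnfaip3 (A20), an inhibitor of NF-kB, at 1.12. Of the calcium and NFAT genes, 10 of 22 were lower and 7 higher. The calcium pump Atp2a3 was at -1.78, the IP3 receptor Itpr3 at -1.54 and the IP3 kinase Itpkb at -1.54, whereas the channel Orai1 was at 1.01, the pump Atp2b4 at 0.87 and Homer3 at 0.72. Of the other inhibitory enzymes and adaptors, 16 of 30 were lower and 9 higher, from Lgals3, a galectin, at -2.45, Inpp4b, a lipid phosphatase, at -1.74 and Tbc1d10c at -1.19 to Dgkh, a further diacylglycerol kinase, at 1.95, Tnip1 at 1.11 and Stap1 at 0.97. Apart from Trac, Trbc1 and Trbc2, the genes named here had the highest or lowest log2 fold changes past the test in their list. Trac was added after its value was seen, and Trbc1 and Trbc2 are named beside it.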

How the data were processed

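Bulk RNA was sequenced from 10 libraries in 5 groups of 2 after a TruSeq Stranded mRNA preparation, per the labels. The deposited table holds raw read counts per gene, whole numbers that the authors did not scale. Per the submitters' processing notes, the tools were STAR 2.7.9, featureCounts, edgeR and limma with build mm39, while settings, annotation and strand handling are stated by none of the sources used here. The authors' second deposited table, of log2 CPM, was not used here. No count column was left unmatched, and NE in a column name was read as not electroporated. Of 55359 identifiers, 52083 matched a GENCODE M21 symbol and 3276 did not. Libraries held between 31281944 and 35062545 counts.

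With edgeR 4.0.16 in R 4.3.3, counts were filtered with filterByExpr (15777 genes left), scaled with TMM (factors 0.9547 to 1.027) and fitted with 5 group means over all 10 libraries. The fit left 5 residual degrees of freedom. The quasi-likelihood F test adds to these by drawing each gene's spread toward that of all genes. Its p-values thus rest on a spread pooled over genes and not on 2 libraries a group alone. They were corrected by the Benjamini-Hochberg procedure across the 15777 genes of each comparison, with a threshold of 0.05. The common coefficient of variation beyond counting was 3.39%, and the libraries of a pair differed by more than counting noise in every group (chi-square per gene 2.61 to 4.94). The procedure was tested on simulated counts. There were 7 comparisons and 20 alternatives: other scalings, filters, DESeq2 1.42.0, limma-voom 3.58.1, only the libraries compared, a replicate block, the mark bis as a term, and each library left out. Where 1 library of a group was left, it was assumed to vary like the other groups.

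The members and lists were chosen with earlier results of these data known. Values in every library are given for the CD3 and CD8 chains and for genes among the 4 largest or 4 smallest log2 fold changes past the test in a cytokine group against Mock. Of each list of other pathway genes, up to 3 at either end in the mixture against Mock are named, with Trac, Trbc1 and Trbc2 besides. Some results of the lists are not reported here.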

Additional observations from a re-analysis of the deposited data

Results flagged for a closer look

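The response to one mRNA differed with and without the other for 33 of the 38 genes, by the interaction term of the edgeR fit (Benjamini-Hochberg adjusted p under 0.05), against 31.6% of all tested genes. Among the abundant genes 27.0% were below 0 and 22.3% above. The values are on the log2 scale, the mixture's change from Mock minus both single changes, and below 0 means that the mixture was lower than that sum. All 4 CD3 chains were below 0, with Cd3d at -0.60, Cd3e at -0.25, Cd3g at -0.74 and Cd247 at -0.27, and so was the coreceptor chain Cd8b1 at -0.20. The kinases and CD45 were all below 0: Lck at -0.20, Fyn at -0.77, Zap70 at -0.21, Txk at -0.50, Prkcq at -0.85 and Ptprc at -0.62. Among the adaptors, Lat was at -0.41, Grap2 at -0.36, Nck1 at -0.38 and Vav1 at -0.19, while Lcp2 at 0.24 and Sh2d2a at 0.32 were above 0. Downstream, Plcg1 was at -0.76, Rasgrp1 at -0.88 and Malt1 at -0.46, with Bcl10 at 0.26 and Sos1 at 0.27. Of the negative regulators, Ptpn22 was at -0.34, Dgka at -0.94, Dgkz at -0.34, Cblb at -0.51, Ubash3a at -0.66, Ubash3b at -2.21, Sla at -0.26, Cd5 at -0.34 and Cd6 at -0.17, with Ptpn6 at 0.37 and Sla2 at 0.24 above 0. In 29 of the 33 the call held under each alternative. The other 4 lost it in at least 1: Vav1, Sos1 and Sla2 in fits without 1 library (Vav1 without DRIL18 replicate 2, mixture replicate 2 or Mock replicate 2, Sos1 without DRIL18 replicate 2 or mixture replicate 2, Sla2 without DRIL18 replicate 1 or Mock replicate 1, with adjusted p up to 0.0625, 0.0813 and 0.118), and Cd6 in 9 alternatives, among them without DRIL18 replicate 2, IL12 replicate 1, mixture replicate 1 or either Mock library (adjusted p up to 0.276).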

How the results depend on the processing

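No log2 fold change called in any of the 7 comparisons changed sign under the alternatives run, 19 for the interaction and 20 for each other comparison. The calls that held under each alternative were 36 of 37 in the mixture against Mock, 32 of 35 against DRIL18, 31 of 35 against IL12, 29 of 33 for the interaction, 20 of 28 in IL12, 11 of 25 in DRIL18 and 1 of 8 in Mock against NoEp. With the mark bis as a term, Mock against NoEp gave 1 of the 38 genes and 171 of all genes, against 8 and 1102. Leaving out each library in turn, the members called ranged from 1 to 9 in Mock against NoEp, 13 to 25 in DRIL18, 23 to 28 in IL12, 36 to 37 in the mixture against Mock, 33 to 35 against DRIL18, 32 to 35 against IL12 and 30 to 33 for the interaction. Over all genes these ranges were 242 (without Mock replicate 1) to 1399, 2525 (without Mock replicate 2) to 4125, 6010 to 7334, 9015 to 10319, 7971 to 9280, 7304 to 8237 and 4123 to 4976 in the same order. The cause of these moves was not tested, beyond that such a fit has fewer samples.

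No pairing by replicate number was seen: same-numbered libraries deviated from their group means with correlations between -0.0361 and 0.0571 over 10 pairs of groups. Such low correlations do not show that same-numbered samples had no common origin. With the replicate block the members called were 9 in Mock against NoEp, 25 in DRIL18, 28 in IL12, 37 in the mixture against Mock, 35 against DRIL18, 35 against IL12 and 33 for the interaction, and over all genes 1104, 3822, 7320, 10053, 9013, 8195 and 4983.

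With 2 libraries a group and 5 residual degrees of freedom, small differences depend on single libraries, as the counts for DRIL18 and for Mock against NoEp show. Depth limits the precision most for Ubash3b, and standard errors were also larger for Txk, Nck1, Sos1 and Tespa1 than for the abundant genes. Mock and the mixture differ fully by the mark bis, and the mark and the mRNAs cannot be told apart by those groups alone.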
